A study of Mus musculus with 12 samples.

Results

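The Müller glia homeostasis genes described here are 10 genes listed for the resting Müller glial cell of the retina: Glul, Rlbp1, Slc1a3, Kcnj10, Aqp4, Car14, Car2, Dkk3, Abca8a and Gpr37. They include genes by which this cell recycles transmitter, buffers ions and water, handles carbon dioxide and bicarbonate, and serves photoreceptors. They were fixed as a list of names, with earlier results of these data known. Every probe set whose only gene symbol was one of these was taken, which gave 19 of the 45037 probe sets tested and 10 of the 18193 genes with a probe set. Slc1a3 had 6 probe sets, Aqp4 had 3, Glul and Dkk3 had 2 each, and the other genes had 1.

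Whole neural retina from C57BL/6NCrSlc (B6) and 129X1/SvJJmsSlc (129) mice, 10 weeks old, was measured on Affymetrix mouse whole-genome arrays, 2 for each of 6 groups. In each strain the groups were the normal retina, taken at once without culture, the retinal explant after 3 days in vitro (3DIV), and the explant at 3DIV with CHIR99021, an inhibitor of the kinase GSK3, at 15 µM. The labels name no transgene or mutant allele in either strain. Explants lay on a membrane with the ganglion cells up, and those without the inhibitor received its vehicle, DMSO, according to the methods of the study. Isolation and culture is the damage in this model: it cuts the optic nerve and parts the neural retina from the pigmented epithelium. By its label each array is a biological replicate, and the methods state 2 retinas for each condition without saying whether these came from separate animals. The p-values below therefore measure the spread between these retinas, which may lie within an animal.

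Müller glia span the whole thickness of the retina. They take up glutamate through the transporter encoded by Slc1a3 and turn it into glutamine by glutamine synthetase, encoded by Glul. Their Kir4.1 channel, from Kcnj10, and their water channel, from Aqp4, sit together in membrane domains that face vessels and vitreous and carry off the potassium and water that active neurons release. After injury these cells become reactive, and a fall of some of these proteins is a known feature of gliosis.

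Values are log2 of the deposited intensity, which is relative, and were compared only within a probe set. Differences of group means carry a standard error (SE) from 1 limma model of the 12 arrays. A difference was called where the Benjamini-Hochberg adjusted p over all probe sets was under 0.05. Differences between strains are 129 minus B6, changes after damage are 3DIV minus normal, and inhibitor effects are with minus without it at 3DIV, so that the last 2 share the explant arrays without the inhibitor. For a gene with several probe sets the one with the highest mean over the arrays stood for it in gene counts. With 2 arrays in a group, precision is limited by their number. In bulk retina, fewer Müller cells and less RNA in each of them cannot be told apart, nor can a change in other cells that express the gene.

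One group stood apart in these genes. In 129 explants with the inhibitor, replicate 1 lay below replicate 2 at 17 of the 19 probe sets and at all 10 standing probe sets, with a median gap of 0.31 between the replicates for the 10 genes. In the other 5 groups that median ran from -0.01 to 0.12, and over all 45037 probe sets the gap in this group had a median near 0. Calls at the 19 probe sets that rest on this group are given with and without replicate 1. Most differences that did not pass, and the results of other lists, are given with both arrays only. The arrays of normal 129 retina were uneven in lens genes, with a mean log2 level of 6.25 on one array and 10.2 on the other over 12 lens markers, while the 10 Müller glia genes had mean levels of 11.3 on both.

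Rod markers, which define the neural retina, had a mean log2 level of 12.9 to 13.1 over 15 genes on the normal arrays. Markers of the pigmented epithelium, which the dissection should remove, were present in normal retina at a mean of 7.66 and 7.82 in B6 and 6.79 and 7.49 in 129, and lay at 5.19 to 5.38 in all explants. Oligodendrocyte and myelin markers, which matter because Car2 and Gpr37 are also known from oligodendrocytes, had mean levels of 5.65 to 5.84 on all arrays. Among these 11, Mog averaged 2.88 to 2.96, Mbp 8.18 to 8.54 and Cnp, the highest, 8.94 to 10.46 over the groups.

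At the probe sets that stood for them, the 10 genes fell into 3 kinds of pattern (see the plot of levels on the 12 arrays). Glul, Car14, Car2, Rlbp1 and Abca8a were highest in normal retina, Slc1a3, Kcnj10 and Gpr37 had their lowest group means there, and Aqp4 and Dkk3 were lowest in 129 explants with the inhibitor. The spread was widest for Abca8a, whose group means covered 3.41 log2 units, followed by Slc1a3 with 1.81, Kcnj10 with 1.72, Car14 with 1.53, Glul with 1.36 and Aqp4 with 1.35. The remaining genes covered 0.69 to 0.95. Other probe sets of a gene could differ: Glul covered 1.71 at 1426235_a_at, and Dkk3 at 1417312_at covered 1.29 and was lowest in normal B6 retina.

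**Figure D1:**
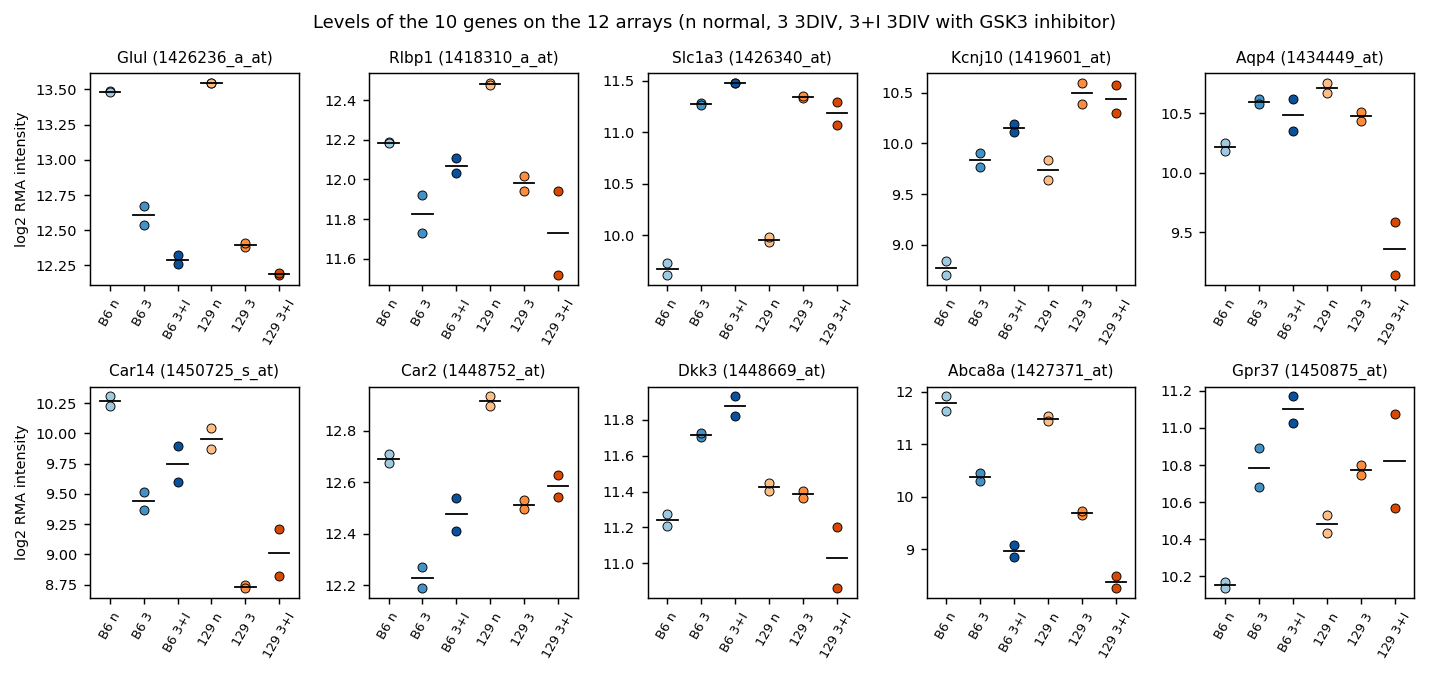
Log2 intensity (vertical axis) of the probe set that stands for each of the 10 genes in the 6 groups of strain and state (horizontal axis). Points are arrays, 2 for each group, and short lines are group means. Abca8a descends from 11.91 to 8.25 and Slc1a3 climbs from 9.61 to 11.48, and the 2 arrays of 129 explants with the inhibitor lie a median of 0.31 apart over the 10 genes.

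After damage the 10 genes did not move as a group. In B6, all 10 changed at the probe set that stood for them, 5 up and 5 down, and 12 of the 19 probe sets rose and 6 fell. In 129, 2 genes rose, 5 fell and 3 did not pass, and 7 probe sets rose and 6 fell. Of all probe sets, 14.9% were called higher and 16.6% lower in B6, and 14.7% higher and 15.9% lower in 129. These shares include many dim probe sets. In a fit of the 22518 probe sets above the median level, 5806 were higher and 6268 lower in B6, and 6035 and 6100 in 129. That fit held 17 of the 19, with 11 higher and 6 lower in B6, and 6 higher and 6 lower in 129. The median change of the 10 genes was 0.01 in B6 and -0.32 in 129, against -0.02 and -0.03 for all probe sets. The plot of changes after damage shows both directions side by side.

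**Figure D2:**
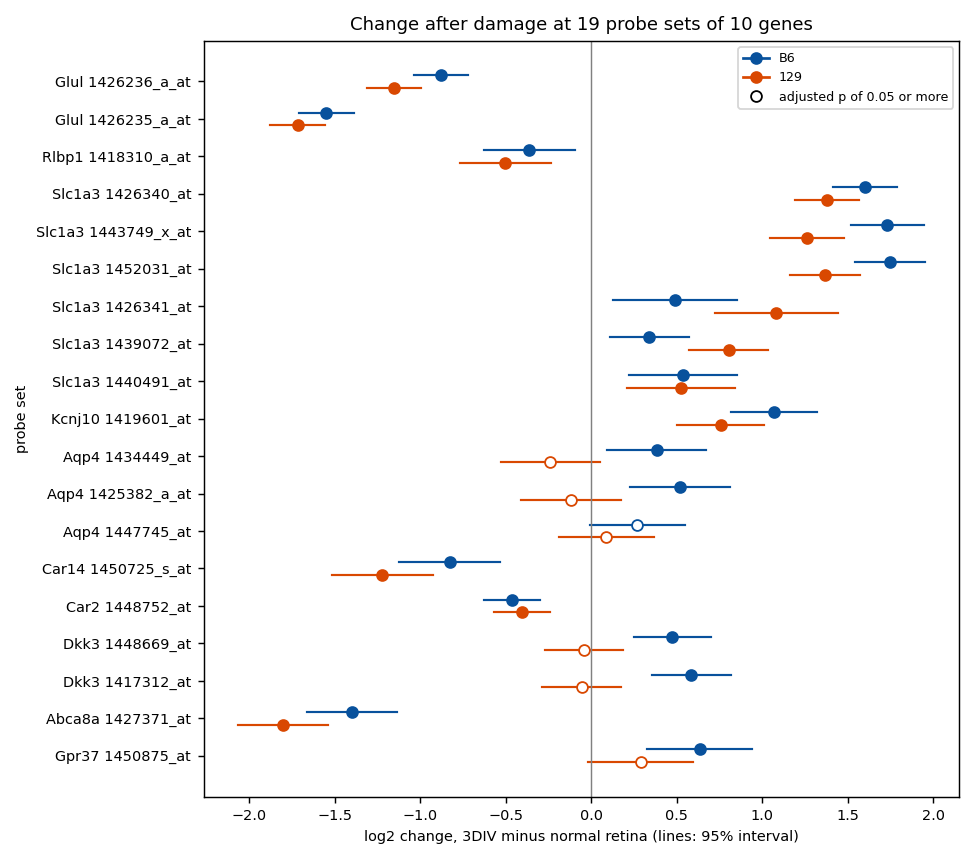
Log2 change after damage, 3DIV minus normal retina (horizontal axis), at the 19 probe sets (vertical axis) in B6 and 129. Points are differences of means of 2 arrays, lines are 95% intervals and open points did not pass. Glul, Rlbp1, Car14, Car2 and Abca8a lie left of 0 in both strains, Slc1a3 and Kcnj10 right of 0 in both, and for Aqp4, Dkk3 and Gpr37 every filled point belongs to B6.

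Of the 2 members in the glutamate pathway, the RNA of one rose and that of the other fell. Slc1a3, which encodes the glutamate transporter GLAST, rose 3.04-fold in B6 and 2.61-fold in 129, whereas Glul, the glutamine synthetase that detoxifies the glutamate taken up, fell 1.84-fold and 2.22-fold. At 1426340_at Slc1a3 read 9.61 and 9.73 in normal B6 retina and 11.29 and 11.26 at 3DIV, and 9.94 and 9.98 in normal 129 retina and 11.33 and 11.35 at 3DIV. The rise was 1.60 in B6 (SE 0.08, adjusted p = 1.87e-07) and 1.38 in 129 (SE 0.08, adjusted p = 4.94e-07), and the explants lay above every normal array. Glul at 1426236_a_at went from 13.49 and 13.48 to 12.54 and 12.68 in B6, and from 13.55 and 13.55 to 12.38 and 12.41 in 129. Those falls were -0.88 (SE 0.07, adjusted p = 4.86e-06) and -1.15 (SE 0.07, adjusted p = 5.41e-07). The other Glul probe set, 1426235_a_at, fell further, by 1.55 in B6 and 1.71 in 129 on the log2 scale. All explants were below all normal retinas at both probe sets.

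The 6 Slc1a3 probe sets agreed in direction but not in size, and they differed in level. Mean log2 levels were 10.8, 10.6 and 10.6 at 1426340_at, 1443749_x_at and 1452031_at, 7.99 at 1426341_at, 6.46 at 1439072_at and 4.52 at 1440491_at. The median level of all probe sets was 6.14. At 1426340_at, 1443749_x_at and 1452031_at the rise was 1.60 to 1.75 in B6 and 1.26 to 1.38 in 129. At the other 3, 1426341_at, 1439072_at and 1440491_at it was 0.49, 0.34 and 0.54 in B6 and 1.08, 0.80 and 0.53 in 129, so that the strain with the larger rise at 1426341_at and 1439072_at was 129. No strain difference in the change after damage passed at any of the 6, with values from -0.47 to 0.59 and adjusted p of 0.11 to 0.99. Without B6 normal replicate 1 that at 1439072_at passed, with a rise larger in 129 by 0.64 (adjusted p = 0.029). The B6 rise at those last 3 probe sets did not pass without B6 normal replicate 1 or B6 3DIV replicate 1, where it was 0.16 to 0.50, and at 1426341_at and 1439072_at also without B6 3DIV replicate 2. At 1426341_at it was further lost without either array of normal 129 retina (0.49, adjusted p = 0.0534), and at 1426341_at and 1439072_at when arrays were centred on housekeeping genes (0.41 and 0.26). In 129 the rise at 1440491_at was lost without 129 normal replicate 1 or 2 or 129 3DIV replicate 1, at 0.47 to 0.54, and with that centring, at 0.36. The rise in B6 at 1439072_at was also lost with only the arrays compared in the fit (adjusted p = 0.103). The plot of the 6 Slc1a3 probe sets shows the 2 courses.

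**Figure D3:**
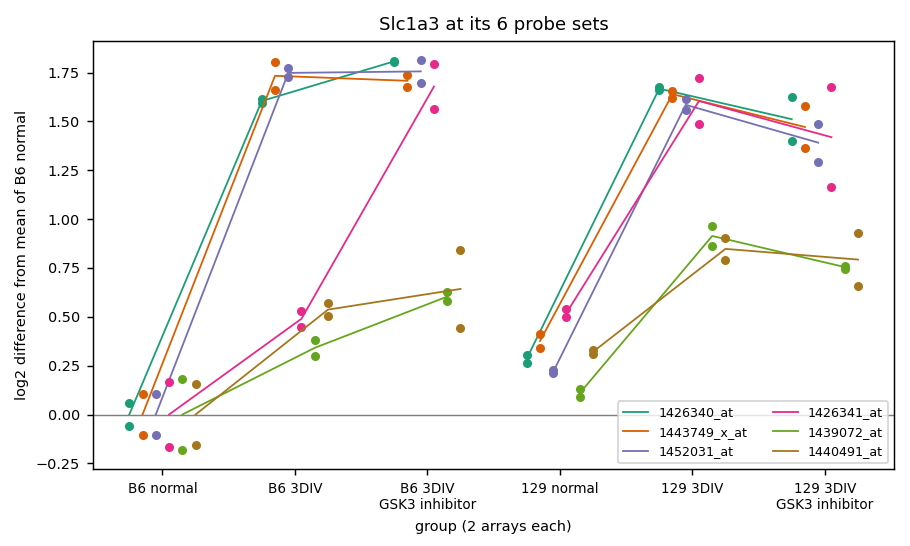
Log2 difference of each array from the mean of normal B6 retina (vertical axis) at the 6 probe sets of Slc1a3 in the 6 groups (horizontal axis, 2 arrays each). Points are arrays and lines join group means within a strain. In B6 explants 1426341_at sits near 0.49 without the inhibitor and near 1.68 with it, whereas 3 other probe sets are already at 1.60 or more without it.

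The potassium channel rose in both strains, and the water channel rose in B6. Kcnj10, the main potassium channel of Müller glia, read 8.70 and 8.84 in normal B6 retina and 9.91 and 9.77 at 3DIV, a rise of 1.07 (SE 0.11, adjusted p = 4.01e-05). In 129 it went from 9.64 and 9.83 to 10.60 and 10.39, a rise of 0.76 (SE 0.11, adjusted p = 4.52e-04). Within each strain the explants lay above the normal retinas, and the normal 129 arrays overlapped the B6 explants. Of the 3 probe sets of Aqp4, the water channel beside it, 2 passed in B6 and none in 129. At 1434449_at it went from 10.25 and 10.18 to 10.62 and 10.58 in B6, by 0.38 (SE 0.13, adjusted p = 0.0473), and at 1425382_a_at by 0.52 (SE 0.13, adjusted p = 0.0117). The third, 1447745_at, differed by 0.27 without passing (adjusted p = 0.13). Its mean log2 level was 5.53, against 10.3 and 8.86 at the first 2 and a median of 6.14 over all probe sets. In 129 the 3 differed by -0.24, -0.12 and 0.09, none past the threshold. The rise at 1434449_at was lost without any 1 of the 8 arrays that were not given the inhibitor, with an adjusted p up to 0.169, and under cyclic loess (0.37, adjusted p = 0.0502) or centring on housekeeping genes (0.31, adjusted p = 0.0958), and that at 1425382_a_at was lost without B6 normal replicate 2 or B6 3DIV replicate 2 (adjusted p up to 0.105). The strain difference in the change did not pass, at -0.62 for 1434449_at (95% interval -1.03 to -0.21, adjusted p = 0.12).

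The carbonic anhydrases and the retinoid carrier fell in both strains. Car14, a membrane-bound carbonic anhydrase, went from 10.31 and 10.22 to 9.36 and 9.51 in B6, a fall of -0.83 (SE 0.13, adjusted p = 7.60e-04), and from 9.87 and 10.05 to 8.75 and 8.72 in 129, a fall of -1.22 (SE 0.13, adjusted p = 4.37e-05). Car2, the cytosolic enzyme, fell by 0.46 in B6 (SE 0.07, adjusted p = 7.37e-04) and by 0.40 in 129 (SE 0.07, adjusted p = 0.00178) on the log2 scale. For both genes the explants lay below the normal retinas of their strain. Rlbp1 encodes CRALBP, which carries 11-cis retinoid in Müller glia and in the pigmented epithelium. It went from 12.19 and 12.19 to 11.73 and 11.92 in B6, a fall of -0.36 (SE 0.12, adjusted p = 0.0413), and from 12.49 and 12.47 to 12.02 and 11.94 in 129, a fall of -0.50 (SE 0.12, adjusted p = 0.00856). The B6 call ended without any 1 of the arrays other than B6 3DIV replicate 2 and the 129 explants with the inhibitor, at values of -0.36 to -0.27 (adjusted p up to 0.239). The 129 call ended without 129 3DIV replicate 2 (adjusted p = 0.0561).

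Of the 10 genes at their standing probe sets, Abca8a fell most in both strains. It belongs to the ABCA8 group of lipid transporters. It read 11.91 and 11.63 in normal B6 retina and 10.31 and 10.44 at 3DIV, a fall of -1.40 (SE 0.12, adjusted p = 6.70e-06). In 129 it went from 11.54 and 11.44 to 9.65 and 9.72, a fall of -1.80 (SE 0.12, adjusted p = 8.65e-07). The groups did not overlap. The 6 group means of Abca8a and those of Glul at 1426236_a_at formed an order in which no neighbouring groups overlapped, normal retina first and explants with the inhibitor last.

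Dkk3 and Gpr37 rose in B6 and did not pass in 129. Dkk3 encodes a secreted relative of the Dickkopf Wnt antagonists, and Gpr37 an orphan receptor reported to respond to prosaposin. Dkk3 at 1448669_at went from 11.21 and 11.27 to 11.70 and 11.73 in B6, by 0.47 (SE 0.10, adjusted p = 0.00456), and differed by -0.04 in 129 (95% interval -0.27 to 0.18). At 1417312_at it rose by 0.59 in B6 (SE 0.10, adjusted p = 0.00139) and differed by -0.06 in 129. Gpr37 went from 10.17 and 10.14 to 10.68 and 10.89 in B6, by 0.63 (SE 0.14, adjusted p = 0.00513), and differed by 0.29 in 129 (95% interval -0.02 to 0.60, adjusted p = 0.15). This difference in 129 passed without either array of 129 explants with the inhibitor (lowest adjusted p = 0.0384).

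Whether a change differed between the strains was tested as an interaction. Of the 19 probe sets, Dkk3 at 1417312_at alone passed, with a change lower in 129 by -0.64 (SE 0.15, adjusted p = 0.0485), and of all probe sets 1.55% were called higher and 1.03% lower. That call was lost without any 1 array other than the 129 explants with the inhibitor, with an adjusted p up to 0.158. No gene passed at its standing probe set, and the median interaction of the 10 genes was -0.33, against 0.00 for all probe sets. Among the 22518 probe sets above the median level, 1184 were higher and 672 lower, and of the 17 members there 2 were lower. Values of the 10 ran from -0.62 for Aqp4 to 0.06 for Car2. Without either array of 129 explants with the inhibitor, Aqp4 at 1434449_at and Dkk3 at 1448669_at passed as well, with a lowest adjusted p of 0.0488 and 0.0394.

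Promoter windows are shown for the 2 genes with the deepest falls in B6 at their standing probe sets and the 2 with the largest rises, as a view of the sequence at their start. RefSeq windows of GRCm38.p6, 250 bases before to 50 after the start of the gene, were searched for 7 of the 10 genes. The source held none for Car2 and Dkk3, and Aqp4 was left out of the search, so nothing is said of its promoter. Capitals mark 3 short motifs searched on both strands, ACAAT for the SOX core, TTGGC for the NFI half-site and CTTTGA for the TCF/LEF core, which were picked after the values had been seen because SOX and NFI factors are in the list of glial transcription factors and TCF/LEF factors act downstream of GSK3. Abca8a lies at chr11:110095888-110096187 on the minus strand, Glul at chr1:153899679-153899978 on the plus strand, Slc1a3 at chr15:8710758-8711057 on the minus strand and Kcnj10 at chr1:172340960-172341259 on the plus strand.
Abca8a: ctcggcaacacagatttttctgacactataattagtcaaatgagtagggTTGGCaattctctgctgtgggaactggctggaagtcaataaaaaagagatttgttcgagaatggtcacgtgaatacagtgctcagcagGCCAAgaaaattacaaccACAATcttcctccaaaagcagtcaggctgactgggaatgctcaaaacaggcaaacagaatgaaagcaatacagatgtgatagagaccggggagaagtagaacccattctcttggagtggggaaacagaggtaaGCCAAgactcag
Glul: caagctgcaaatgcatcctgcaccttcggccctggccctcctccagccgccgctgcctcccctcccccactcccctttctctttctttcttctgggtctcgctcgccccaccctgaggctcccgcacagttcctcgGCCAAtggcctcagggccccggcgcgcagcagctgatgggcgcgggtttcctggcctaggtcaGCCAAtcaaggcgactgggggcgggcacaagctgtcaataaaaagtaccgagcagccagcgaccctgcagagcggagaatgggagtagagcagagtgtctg
Slc1a3: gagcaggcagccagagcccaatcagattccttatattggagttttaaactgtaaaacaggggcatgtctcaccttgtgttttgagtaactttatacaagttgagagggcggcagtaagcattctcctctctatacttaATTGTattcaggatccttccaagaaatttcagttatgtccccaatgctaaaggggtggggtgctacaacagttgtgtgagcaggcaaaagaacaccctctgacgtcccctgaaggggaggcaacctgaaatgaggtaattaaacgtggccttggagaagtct
Kcnj10: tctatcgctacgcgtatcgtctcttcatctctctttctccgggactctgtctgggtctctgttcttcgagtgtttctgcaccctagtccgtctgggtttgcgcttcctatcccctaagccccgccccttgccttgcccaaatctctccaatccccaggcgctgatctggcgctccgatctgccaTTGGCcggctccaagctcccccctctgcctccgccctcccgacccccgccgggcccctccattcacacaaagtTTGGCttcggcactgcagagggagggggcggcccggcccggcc
The SOX core was found once in Abca8a and once in Slc1a3. The NFI half-site was found 3 times in Abca8a, 2 times in Glul and 2 times in Kcnj10, and not in Slc1a3. The TCF/LEF core was in none of the 7 windows, and no base was shared between matches of different motifs. Of 32851 windows of the same 300 bases over all genes, 31% held the SOX core, 46.7% the NFI half-site and 16% the TCF/LEF core. A match is a description of these letters and not a site of binding.

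Markers of several other cell types also changed after damage. All 15 rod markers fell after damage in both strains, with medians of -1.18 in B6 and -1.32 in 129. Of 14 pigmented epithelium markers 12 fell in B6 and 10 in 129, with medians of -1.76 and -1.04. These are beside the falls of Rlbp1 and Car14, which pigmented epithelium also expresses, and of the genes that were highest in normal retina. Of 17 markers of microglia and macrophages 16 rose in B6 and 13 in 129, with medians of 1.70 and 0.87. Of 11 myelin markers Cnp rose in both strains, Mal fell in both and Ermn fell in B6, and the others did not pass. Of 16 markers of reactive gliosis 16 rose in B6 and 15 in 129, with medians of 3.20 and 3.44, led by Lcn2 at 6.45 and 6.39. Of 12 lens markers 9 fell in 129, with a median of -3.41, and none passed in B6, beside the lens signal of the normal 129 arrays. Of 8 astrocyte markers 3 rose and 3 fell in B6, and 2 rose and 3 fell in 129, with medians of -0.21 and -0.24. Bipolar, amacrine, ganglion cell and vessel markers had medians of -0.03, -0.07, -0.44 and 0.12 in B6. In 129 these were -0.24, -0.29, -0.14 and 0.08. Among other genes known from Müller glia, Sox9, Vim and Clu rose in both strains, and Apoe fell in 129 only. The part of these markers in the changes of the 10 genes was not tested.

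Genes around the 10 in the same pathways were counted too. Of 18 further genes of glutamate, glutamine and amino acid transport, 7 rose and 5 fell in B6, and 5 rose and 5 fell in 129. Slc7a11, the cystine and glutamate exchanger, rose by 1.63 in B6 and 1.90 in 129, and Gpt2, a transaminase, by 0.87 and 0.79. Slc6a6, the taurine transporter, differed by -0.90 and -0.92, and Slc38a3, which exports glutamine, by -0.40 and -0.83, and Slc1a2, the glutamate transporter GLT-1, by -0.59 and -0.61, all 3 called lower in both strains. The other called genes of those counts of 5 were Slc38a1 and Got1, lower in B6, Slc1a5 and Slc6a11, lower in 129, and Slc3a2, Glud1 and Gclm, higher in 129. The list median was 0.18 in B6 and -0.12 in 129, against -0.02 and -0.03 over all probe sets.

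Of 19 further genes of potassium, water and ion balance, 5 rose and 5 fell in B6, and 4 rose and 4 fell in 129. The falls were led in B6 by Kcnj13 at -2.76, Gja1 at -2.14, Aqp1 at -2.10 and Dmd at -1.18, and in 129 by Aqp1 at -1.84, Dmd at -1.48, Kcnj13 at -1.46 and Atp1b2 at -0.73. Dmd encodes dystrophins, which anchor the membrane domain that holds the Kcnj10 and Aqp4 channels. Its partners rose, Dag1 (dystroglycan) by 0.49 in B6 and 0.39 in 129, Dtna (dystrobrevin) by 0.54 and 0.45 and, in 129, Sntb1 (a syntrophin) by 0.43. Atp1b2, a sodium pump subunit, was lower in B6 too, at -0.45. The other risers were Slc12a2, a chloride cotransporter, by 0.24 in B6 and 0.30 in 129, and, in B6, Mlc1 by 1.07 and Clcn2, a chloride channel, by 0.63. Kcnj13 is a potassium channel known from the pigmented epithelium.

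Of 20 further genes of carbonic anhydrases and of bicarbonate and lactate transport, 4 rose and 7 fell in B6, and 5 rose and 7 fell in 129. Car12 fell by 1.68 in B6 and 1.54 in 129 on the log2 scale, and Slc16a1, the lactate and pyruvate transporter MCT1, by 1.24 and 0.99. Car6, a secreted carbonic anhydrase, rose by 2.04 in B6 and by 0.62 in 129. Car11, Car13 and Slc4a2 rose in both strains and Slc16a7 in 129. Of 18 further genes of retinoid handling, 3 rose and 10 fell in B6 and 4 rose and 8 fell in 129, and the deepest falls, of Rgr at -5.22 and -4.17 and Rpe65 at -4.63 and -4.22, were of genes whose proteins sit in the pigmented epithelium (Rgr also in Müller glia). Aldh1a1, which makes retinoic acid, rose by 1.23 in both strains, and Rdh10 and Crabp2 rose in both. Aldh1a2 rose in 129 at a low level, from a mean of 3.44 to 3.78.

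Of 24 relatives in secretion, lipid transport and orphan receptors, 8 rose and 2 fell in B6, and 7 rose and 6 fell in 129. Crym, which binds thyroid hormone, rose by 4.01 in B6 and 3.86 in 129, Pdpn, podoplanin, by 1.89 and 2.57 and Cd9, a tetraspanin, by 1.79 and 1.80. Ptn, a growth factor, and Vegfa fell in both strains, Vegfa by 0.71 in B6 and 1.06 in 129 on the log2 scale. Gpr37l1, the nearest relative of Gpr37, rose by 0.63 in B6 and differed by 0.00 in 129. Abca8b, next of kin to Abca8a, differed by -0.17 in B6 and -0.09 in 129 without passing. Of 20 glial transcription factors 11 rose and 1 fell in B6 and 12 rose and 2 fell in 129, with Sox2 up by 1.17 in B6 and 1.34 in 129 and Hes5 at -1.12 and -1.27. Rax fell in 129 as well. The plot of changes by list shows how the 10 genes lie among them.

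**Figure D4:**
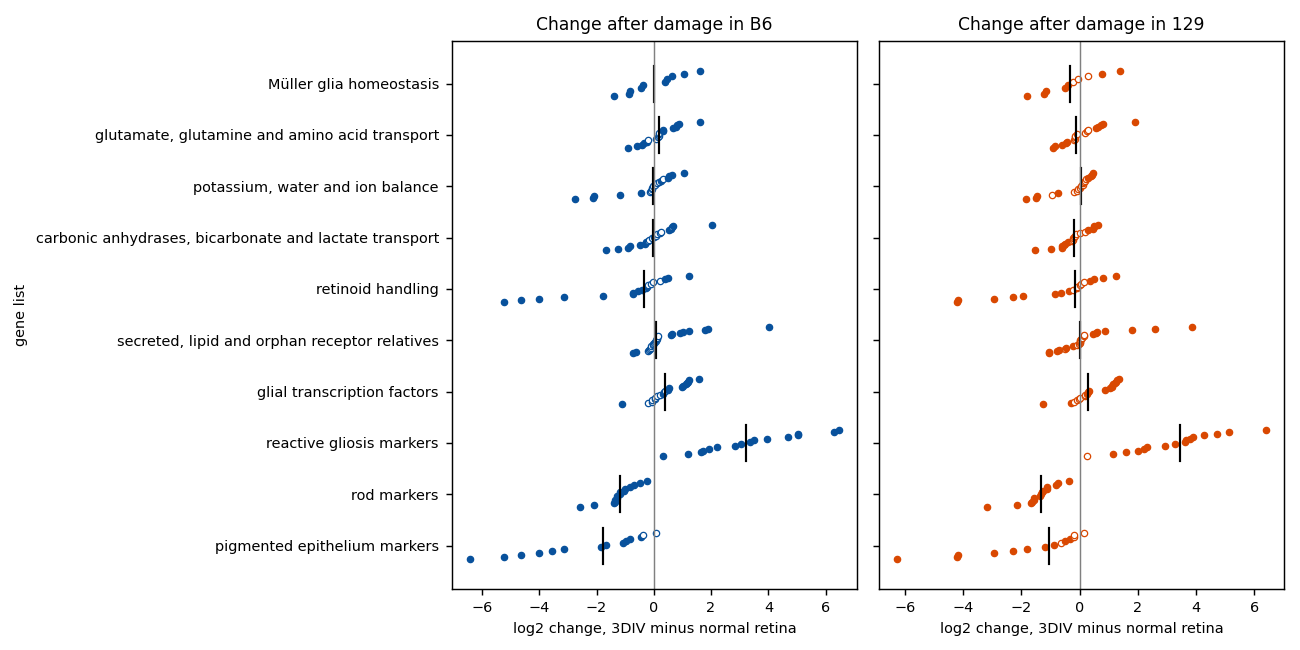
Log2 change after damage (horizontal axis) of single genes in 10 lists (vertical axis), in B6 (left) and 129 (right). Points are genes at the probe set that stands for them, filled where called, and the black bar is the list's median. The 10 Müller glia genes spread from -1.40 to 1.60 in B6 and from -1.80 to 1.38 in 129, whereas the 15 rod markers all lie left of 0 and the reactive gliosis markers right of it.

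With the GSK3 inhibitor, Abca8a fell in both strains, Aqp4 fell in 129, and Dkk3 and Slc1a3 each had a probe set that rose in B6. In B6, 1 gene was higher and 2 lower at the standing probe set, and 4 of 19 probe sets were higher and 2 lower, where 9.42% of all probe sets were called higher and 9.18% lower. In 129, 3 genes and 5 probe sets were lower and none was higher, where 5.87% of all were called higher and 6.38% lower. Among the 22518 probe sets above the median level, 4444 were higher and 4499 lower in B6, and 3323 and 3504 in 129. Of the 17 members there, 5 were higher and 2 lower in B6, and 0 higher and 5 lower in 129. The median effect on the 10 genes was 0.22 in B6 and -0.18 in 129, against 0.00 and 0.01 for all probe sets. The plot of inhibitor effects gives them all.

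**Figure D5:**
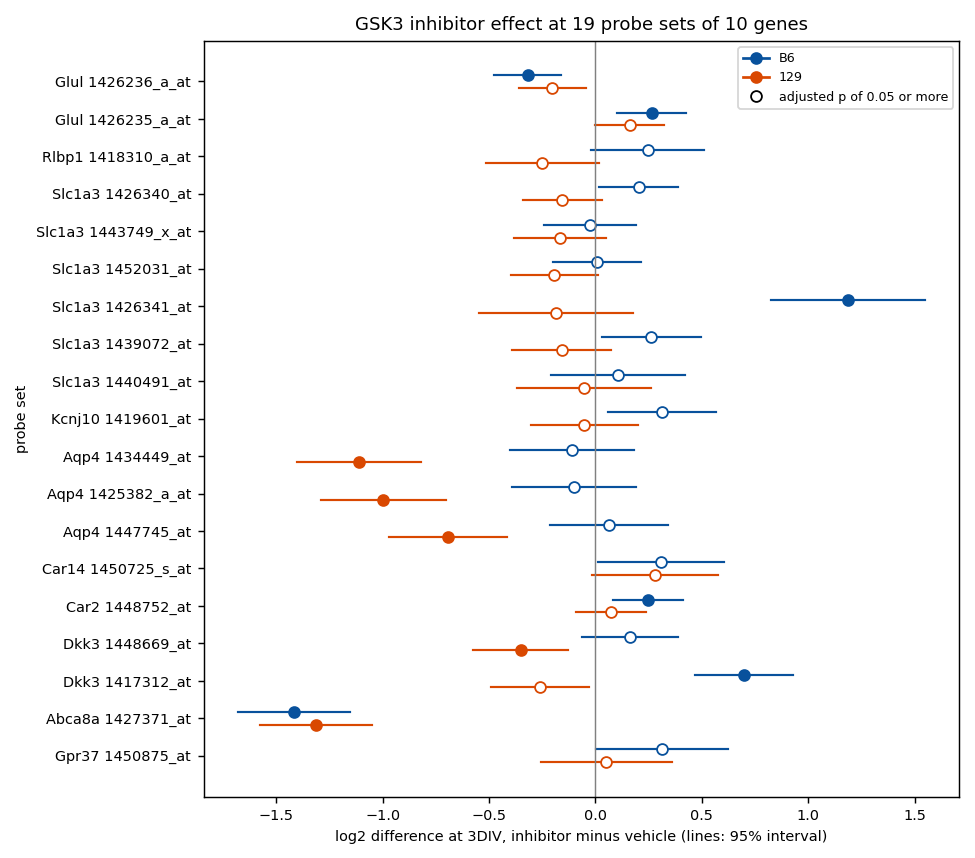
Log2 effect of the GSK3 inhibitor at 3DIV, with minus without it (horizontal axis), at the 19 probe sets (vertical axis) in B6 and 129. Points are differences of means of 2 arrays, lines are 95% intervals and open points did not pass. Abca8a lies near -1.42 and -1.31, the 3 Aqp4 probe sets lie left of 0 with filled points in 129, and most other intervals reach 0 or lie near it.

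Abca8a fell further with the inhibitor in both strains. It read 10.31 and 10.44 in B6 explants without it and 8.84 and 9.07 with it, a difference of -1.42 (SE 0.12, adjusted p = 4.41e-05). In 129 the values were 9.65 and 9.72 and then 8.25 and 8.48, a difference of -1.31 (SE 0.12, adjusted p = 8.66e-05), and -1.20 (adjusted p = 0.00152) without 129 inhibitor replicate 1. The groups did not overlap in either strain, and the effect did not differ between them at the threshold, with an interaction of 0.10 (95% interval -0.27 to 0.47). Beside this, 11 of the 15 rod markers were lower with the inhibitor in B6 and 11 in 129, with medians of -0.46 and -0.45. The mean level over the 15 went from 11.8 to 11.3 in B6, on all arrays, and from 11.6 and 11.7 to 11.1 and 11.3 in 129. Of 12 bipolar markers 6 were lower in B6 and 5 in 129, with Trpm1 higher in both, and medians of -0.24 and -0.30. Of 12 amacrine markers 4 were lower in B6 and 3 in 129, with medians of -0.13 and -0.03. The part of these cells in the fall of Abca8a was not tested.

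Aqp4 fell with the inhibitor in 129. At 1434449_at it read 10.44 and 10.51 in 129 explants without it and 9.14 and 9.59 with it, a difference of -1.11 (SE 0.13, adjusted p = 4.97e-04), at 1425382_a_at -0.997 (SE 0.13, adjusted p = 9.81e-04) and at 1447745_at -0.69 (SE 0.13, adjusted p = 0.00545). The inhibitor arrays lay below the others at all 3 probe sets. Without 129 inhibitor replicate 1 the 3 differences were -0.89 (adjusted p = 0.0029), -0.90 (adjusted p = 0.0132) and -0.59 (adjusted p = 0.0541), and at 1447745_at the call was also lost without 129 3DIV replicate 2. In B6 they were -0.11, -0.10 and 0.07, with a 95% interval of -0.40 to 0.18 at 1434449_at.

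The strain difference in this effect on Aqp4 was tested as an interaction. It passed at 1434449_at with -1.0002 (SE 0.19, adjusted p = 0.0291) and at 1425382_a_at with -0.90 (SE 0.19, adjusted p = 0.0476), and reached -0.76 at 1447745_at (adjusted p = 0.0723). Without 129 inhibitor replicate 1 the first 2 were -0.78 (adjusted p = 0.0683) and -0.80 (adjusted p = 0.169). The calls were also lost without B6 inhibitor replicate 2 and without any 1 of the 4 explant arrays without the inhibitor, and at 1425382_a_at without B6 inhibitor replicate 1, 129 inhibitor replicate 2 or a normal B6 array. With only the arrays compared in the fit the adjusted p values were 0.0542 and 0.0552.

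The effect of the inhibitor on Dkk3 differed between the strains at 1 of its 2 probe sets. At 1417312_at it read 11.23 and 11.37 in B6 explants without the inhibitor and 11.96 and 12.03 with it, higher by 0.70 (SE 0.10, adjusted p = 0.00125), and 11.44 and 11.40 against 10.98 and 11.33 in 129, a difference of -0.26 (adjusted p = 0.137). The interaction passed at -0.96 (SE 0.15, adjusted p = 0.014) and at -0.79 without 129 inhibitor replicate 1 (adjusted p = 0.0315), and was lost without B6 3DIV replicate 1 or 129 3DIV replicate 1 or 2, with an adjusted p up to 0.0567. At 1448669_at the effect was 0.16 in B6 without passing and -0.35 in 129 (SE 0.10, adjusted p = 0.0475). This last call was lost without any 1 array other than 129 inhibitor replicate 2, and was -0.18 without 129 inhibitor replicate 1 (adjusted p = 0.305). It was also lost with centring on housekeeping genes (-0.29) and with only the arrays compared (adjusted p = 0.125). Without 129 inhibitor replicate 2 the fall at 1417312_at passed, at -0.43 (adjusted p = 0.0257).

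Slc1a3 at 1426341_at rose with the inhibitor in B6 and did not pass in 129. It read 7.57 and 7.49 in B6 explants without the inhibitor and 8.84 and 8.61 with it, a rise of 1.19 (SE 0.16, adjusted p = 8.01e-04), and 8.53 and 8.77 against 8.21 and 8.72 in 129, a difference of -0.19 (95% interval -0.55 to 0.18). The interaction was -1.37 (SE 0.23, adjusted p = 0.0198). Without 129 inhibitor replicate 1 it was -1.12 (adjusted p = 0.0536), and the call was also lost without either B6 3DIV array, B6 inhibitor replicate 1 or 129 3DIV replicate 2. The other 5 probe sets of the gene gave -0.03 to 0.26 in B6, none past the threshold, and -0.19 to -0.05 in 129. In the main model the effect thus stood at 1 of 6 probe sets. At 1439072_at the B6 rise of 0.26 passed as well without B6 normal replicate 1 or without B6 normal replicate 2. Over all probe sets 0.389% were called higher and 0.966% lower in the interaction, and 4 of the 19, at Aqp4, Dkk3 and Slc1a3, were called lower. Among the 22518 probe sets above the median level, 227 were higher and 637 lower, and of the 17 members there 4 were lower.

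The 2 Glul probe sets disagreed under the inhibitor. In B6, 1426236_a_at was lower by -0.32 (SE 0.07, adjusted p = 0.0111) and 1426235_a_at higher by 0.26 (SE 0.07, adjusted p = 0.029), with non-overlapping groups at each. In 129 they differed by -0.20 and 0.16, with adjusted p of 0.0941 and 0.193. Both B6 calls were lost without B6 3DIV replicate 2 or B6 inhibitor replicate 2, and that of 1426235_a_at also without B6 3DIV replicate 1 or B6 inhibitor replicate 1. Both were lost with only the arrays compared in the fit (adjusted p = 0.0801 and 0.0631), and 1426236_a_at with centring on housekeeping genes, at -0.23. With the mean of both probe sets Glul differed by -0.03 in B6, without passing. Car2 was higher in B6 by 0.25 (SE 0.07, adjusted p = 0.0414), a call lost without any 1 of 9 arrays and kept only without a normal B6 array or B6 inhibitor replicate 1. Cyclic loess (0.22, adjusted p = 0.0618) and a fit of only the arrays compared (adjusted p = 0.119) ended it too. The count of genes higher in B6 at the standing probe set, 1 in the main model, was 0 in those fits. It was 2 above the median level, and 3 with trend and robust eBayes or with centring on housekeeping genes. Rlbp1, Kcnj10, Car14 and Gpr37 did not pass in either strain in the main model, with values of 0.25 to 0.31 in B6 and -0.25 to 0.28 in 129. The lowest of these, Rlbp1 in 129, was -0.04 without 129 inhibitor replicate 1 (adjusted p = 0.884) and passed at -0.46 without replicate 2 (adjusted p = 0.0274).

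Related genes moved under the inhibitor as follows. Of the 18 genes of amino acid transport 7 were higher and 2 lower in B6, and 3 were higher and 1 lower in 129. The lower ones were Slc38a3 in both strains and Slc6a11, a GABA transporter, in B6, and the higher ones in 129 were Slc7a5, Slc3a2 and Gpt2. Of the 19 genes of ion balance Aqp1 rose by 0.34 in B6 and 0.37 in 129, Atp1b2 was lower at -0.50 and -0.47, and Clcn2 was lower in B6 at -0.41. Of the 24 relatives in secretion and lipid transport 2 were higher and 7 lower in B6, Abca8b among the lower at -0.53, and 2 were higher and 3 lower in 129. Those 2 were Ptn and Vegfa in both strains, and the 3 were Abca5, Clu and Timp3. Of 17 markers of microglia and macrophages 13 were lower in B6 and 10 in 129, with Cd68 higher in 129, and their part was not tested.

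The normal retinas of the strains differed in 4 of the 19 probe sets, all higher in 129, where 6.07% of all were called higher and 5.45% lower. Among the 22518 probe sets above the median level, 2706 were higher and 2260 lower, and of the 17 members there 7 were higher. Kcnj10 was higher by 0.97 (SE 0.11, adjusted p = 2.90e-04), reading 9.64 and 9.83 in 129 against 8.70 and 8.84 in B6, without overlap. Dkk3 at 1417312_at was higher by 0.76 (SE 0.10, adjusted p = 7.72e-04), while its standing probe set, 1448669_at, differed by 0.19 without passing (adjusted p = 0.298), and Aqp4 at 1434449_at by 0.50 (SE 0.13, adjusted p = 0.0338), and Slc1a3 at 1443749_x_at by 0.38 (SE 0.10, adjusted p = 0.031). The call of Aqp4 was lost without any 1 of the normal or vehicle B6 arrays or the normal 129 arrays (adjusted p up to 0.152). That of Slc1a3 was lost without B6 normal replicate 1 or 129 normal replicate 1 or 2 (adjusted p up to 0.177), and with only the arrays compared (adjusted p = 0.0961). With the mean of its probe sets Aqp4 differed by 0.34 and did not pass. Without either 129 array with the inhibitor 7 passed, with Slc1a3 at 1426340_at (0.29) and 1426341_at (0.52) and Gpr37 (0.33) added, and 9 passed with centring on housekeeping genes. The median strain difference of the 10 genes was 0.26, against 0.01 over all probe sets. In the same comparison 5 of 12 lens markers were higher in 129, with a list median of 3.15. Lower in 129 were 8 of 17 microglia and macrophage markers and 5 of 14 pigmented epithelium markers, with list medians of -0.41 and -0.69. Their part in these differences was not tested.

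At 3DIV the strains differed at 7 probe sets, 4 higher and 3 lower in 129, where 11.4% of all were called higher and 8.57% lower. Among the 22518 probe sets above the median level, 5070 were higher and 3415 lower, and of the 17 members there 4 were higher and 4 lower. Kcnj10 stayed higher in 129 by 0.66 (SE 0.11, adjusted p = 0.00246). Slc1a3 was higher at 1426341_at by 1.11 (SE 0.16, adjusted p = 8.53e-04) and at 1439072_at by 0.57 (SE 0.11, adjusted p = 0.00325), and between -0.16 and 0.31 at its other 4 probe sets, none past the threshold. Car2 was higher by 0.28 (adjusted p = 0.0215), a call lost without B6 3DIV replicate 1 or 129 3DIV replicate 1 or 2. Car14 was lower in 129 by -0.70 (SE 0.13, adjusted p = 0.00403), Abca8a by -0.69 (SE 0.12, adjusted p = 0.00223), and Dkk3 at 1448669_at by -0.33 (adjusted p = 0.0435). That call was lost without any 1 array but the 129 arrays with the inhibitor, and with centring on housekeeping genes (-0.32). With the mean of both its probe sets Dkk3 differed by -0.11. Beside these differences 14 of 17 microglia and macrophage markers were lower in 129, with a median of -1.08. Of 16 reactive gliosis markers 3 were higher and 6 lower. Their part was not tested.

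With the inhibitor the strains differed at 9 of 19 probe sets, all lower in 129, where 6.01% of all were called higher and 4.88% lower. Among the 22518 probe sets above the median level, 2928 were higher and 1912 lower, and of the 17 members there 8 were lower. Aqp4 was lower at its 3 probe sets, by -1.12 (SE 0.13, adjusted p = 2.72e-04), -1.21 (SE 0.13, adjusted p = 1.64e-04) and -0.75 (SE 0.13, adjusted p = 0.00287). Dkk3 was lower by -0.84 at both of its probe sets (adjusted p = 3.34e-04 and 3.92e-04), Car14 by -0.73 (adjusted p = 0.00482) and Abca8a by -0.59 (adjusted p = 0.00867). Slc1a3 probe sets completed the 9, 1452031_at at -0.36 (adjusted p = 0.0286) and 1426340_at at -0.30 (adjusted p = 0.0479). Without 129 inhibitor replicate 1, those of Slc1a3 were -0.27 and -0.18, those of Aqp4 -0.90, -1.11 and -0.64, those of Dkk3 -0.67 at both, and those of Car14 and Abca8a -0.54 and -0.47. In that fit only Slc1a3 and Abca8a lost their calls among these, with an adjusted p of 0.219, 0.324 and 0.0887. The 2 Slc1a3 calls were also lost without a B6 array with the inhibitor, that of 1426340_at also without any vehicle array or normal 129 array, and Abca8a without B6 inhibitor replicate 2. With only the arrays compared in the fit both Slc1a3 calls were lost (adjusted p = 0.0832 and 0.142), and with centring on housekeeping genes that of 1426340_at (-0.31). A total of 11 probe sets passed without 129 inhibitor replicate 2, with Rlbp1 (-0.55, adjusted p = 0.00961) and Gpr37 (-0.53, adjusted p = 0.0188) added. Of 17 microglia and macrophage markers 12 were lower in 129, with a median of -0.61, and of 16 reactive gliosis markers 3 were higher and 8 lower. Their part was not tested.

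The genes nearest to a member in pattern over the 12 arrays, among 5251 probe sets with 1 symbol and a range of at least 1 log2 unit, are given as a description, since the arrays share their groups. Abca8a lay closest to Narf (Pearson r 0.993), Mpp4 (0.992) and Cacna1f (0.992), and Mpp4 and Cacna1f are known from photoreceptor terminals. Glul lay closest to Med13l, Gpsm1 and Pde6b (0.997, 0.997 and 0.996), the last a subunit of the rod phosphodiesterase. Slc1a3 lay closest to Hkdc1 (0.995), Socs3 (0.993) and Metrn (0.991), and Kcnj10 to Cdh11 (0.979), Nfib (0.976) and Fzd3 (0.970). Car14 lay closest to Hmgcs1 (0.971), Nxph2 (0.951) and Sgpp2 (0.949). Aqp4 had no near neighbour above 0.81, with Mxd4 (0.805), Mylip (0.796) and Rrh (0.774).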

How the data were processed

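RNA of whole neural retina was measured on 12 arrays. The authors summarized them with RMA (version not given in the sources used here), which corrects background, brings arrays to a common distribution and gives 1 value per probe set. The deposited values were linear intensities with medians of 68.8 to 70.7 over the arrays. Log2 was taken here, 64 control probe sets of 45101 were left out, and no filter on signal was applied. A symbol was assigned by the array's annotation to 34945 probe sets singly, to 932 with several and to 9160 not at all. Probe sets ending in _s_at or _x_at can bind more than 1 transcript. Groups came from the labels.

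A limma 3.58.1 model (R 4.3.3) with 6 group means was fitted over all arrays, following the eBayes method that the study names. Its eBayes step added 4.69 prior to 6 residual degrees of freedom, and p-values were adjusted over 45037 probe sets in each of 9 comparisons. The steps were tested on simulated data. Of each other list, up to 4 called genes with the largest difference were named, and every called gene where 5 or fewer were counted in the lists described. Gpr37l1 and Abca8b, relatives of members, were named after their values were seen. Near neighbours are the 3 genes with the highest Pearson r to a member whose range was at least 1 log2 unit. Members and lists were chosen with earlier results of these data known. Alternatives covered scaling, dim probe sets, the variance model, the arrays in the fit, pairing, the adjustment, the probe sets of a gene and each array in turn. Figures used matplotlib 3.10.9 in Python 3.11.15. Promoter sequences are from RefSeq.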

Additional observations from a re-analysis of the deposited data

Results flagged for a closer look

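The effect of the GSK3 inhibitor differed between the strains, by a test of the interaction, at 4 probe sets. The differences, 129 minus B6, were -0.96 for Dkk3 at 1417312_at, -0.90 for Aqp4 at 1425382_a_at, -1.0002 for Aqp4 at 1434449_at and -1.37 for Slc1a3 at 1426341_at. Without 129 inhibitor replicate 1 they were -0.79, -0.80, -0.78 and -1.12, and only that of Dkk3 still passed. The change after damage differed between the strains for Dkk3 at 1417312_at, by -0.64, a call that was lost without most single arrays. With 2 arrays in a group, no array was tested as lying apart from its group.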

How the results depend on the processing

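Of 171 differences at the 19 probe sets in 9 comparisons, 67 were called, and none of these changed its sign without any 1 array. In those fits 42 of the 67 calls held and 25 were lost at least once, and 16 of the 104 differences not called passed at least once. In the normal retinas the 4 probe sets called became 9 when arrays were centred on housekeeping genes, 7 among probe sets above the median level and 7 with trend and robust eBayes, and 2 to 7 without 1 array. For the inhibitor in B6 the 6 called became 3 with only the arrays compared and 3 to 7 without 1 array, and for the inhibitor in 129 the 5 called became 3 to 7. For the strain difference in the change after damage, 1 call became 2 above the median level, 6 with trend and robust eBayes, 3 with only the arrays compared and 0 to 3 without 1 array, and 0 genes became 1 with the mean of a gene's probe sets. For that in the inhibitor's effect, 4 became 7 with trend and robust eBayes, 2 with only the arrays compared and 0 to 5 without 1 array, and 1 gene became 2 with the mean of probe sets. Without 1 array the strains differed at 5 to 7 probe sets at 3DIV and at 6 to 11 with the inhibitor, and damage changed 13 to 18 in B6 and 12 to 14 in 129. Centring on housekeeping genes moved the median of all probe sets to 0.11 in the normal retinas, -0.10 and -0.20 after damage in B6 and 129, and 0.09 and 0.07 for the inhibitor. Over all probe sets it gave 5071 higher and 10269 lower after damage in B6 (6714 and 7474 before), 4242 and 16530 in 129 (6640 and 7144), 6220 and 1612 in the normal retinas (2735 and 2453), 6724 and 2516 for the inhibitor in B6 (4243 and 4136), 4132 and 1972 in 129 (2644 and 2873) and 409 and 798 for the strain difference in the change after damage (696 and 465). Of the 19 probe sets, this scaling gave 9 higher and 6 lower after damage in B6 and 6 higher and 7 lower in 129. The reference of this scaling, 7 housekeeping genes, was not itself constant. After damage 2 of the 7 were called higher and 3 lower in B6, and 2 higher and 1 lower in 129. In normal retina 3 were lower in 129. Their mean level went from 10.95 to 11.03 in B6 and from 10.85 to 11.02 in 129 after damage. The cause of these shifts was not tested. The labels number replicates 1 and 2 in each group. With the replicate number as a block, all 171 results kept their side of the threshold, with 4 probe sets called in the normal retinas and 18 after damage in B6. Deviations of arrays with the same number correlated at -0.11 to 0.04, so that the numbers were not taken to pair the retinas. The 2 arrays per group limit what can be called.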
